A study of Mus musculus with 15 samples.

Results

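Heat shock proteins and their partners were followed in the auditory nerve of mice that heard loud noise. The set was a fixed list of 37 genes for heat shock factors, Hsp70, Hsp110, Hsp90, J-domain proteins, small heat shock proteins, co-chaperones, the mitochondrial and TRiC chaperonins and the collagen chaperone. Every probe set that the platform annotation pairs with 1 of these symbols was taken, 98 in all, and each gene was represented by its probe set with the highest mean over 15 arrays. Of the 37 genes, 35 had such a probe set, 8 of them a single one and 27 several. Hsf1 and Hsp90ab1 were not analysed here. Hsf2 lay among the lowest 25% of genes and was not tested, which left 34 members of 13644 genes tested.

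The samples were 15 arrays of CBA/CaJ mice, 3 in each of 5 groups, and each array held RNA pooled from both ears of 1 animal. The 4 noise groups, young adults of 5 to 12 weeks, were exposed for 2 h to an octave band (8 to 16 kHz) at a level of 106 dB SPL and were taken immediately, 1, 7 or 14 days later. Controls, of the same ages, heard none. The dissection kept the modiolus, the core of the cochlea that holds the nerve, after bone shell, lateral wall and the bulk of the sensory epithelium had been taken away, and 50 ng of RNA was labelled per array. Sex was unbalanced: the immediate group held 2 females and 1 male, the 1-day group 3 males, the 7-day and 14-day groups 1 male and 2 females each, and the controls 3 females. All values are log2 intensities. Differences are given as log2 fold changes ± SE of the fit, with n = 3 arrays a group. Levels are not compared between genes, since each probe set has its own response.

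Array medians lay between 5.87 and 5.92. Some markers of the labelled tissue were bright on every array, with Nefl and Snap25 of neurons at or above 13.19 and 13.34, and Mbp and Pmp22 of myelinating cells at or above 13.86 and 13.19. Other markers of the same lists were dimmer, such as Prph of neurons at 5.49 to 6.11 and Cldn19 of myelinating cells at 6.63 to 7.56. Of 5 skeletal muscle markers 1 passed the filter on low values, and of 6 hair cell markers 4 did. In such bulk samples, fewer cells of a type and less RNA per cell cannot be told apart.

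Molecular chaperones bind unfolded proteins and help them fold, refold or be degraded. Hsp70 proteins work in cycles of ATP use, which J-domain proteins start and Hsp110 proteins, as nucleotide exchange factors, end. Under protein stress, heat shock factor 1 forms trimers, binds heat shock elements made of alternating GAA and TTC units, and switches on inducible members such as Hspa1a and Hspa1b. Hspa8 is the constitutive cytosolic Hsp70. Heat shock proteins are known in the cochlea as part of the response to heat, ototoxic drugs and loud sound.

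The start regions of 7 members are shown because they hold those units beside genes that the results turn on or that carry longer runs of units. They are from RefSeq (GRCm38.p6), 5′ to 3′, from 120 bases before to 30 after the start, and capitals mark every GAANNTTC or TTCNNGAA match of 2 units.
Hspa1a (chr17:34972127-34972276, minus strand): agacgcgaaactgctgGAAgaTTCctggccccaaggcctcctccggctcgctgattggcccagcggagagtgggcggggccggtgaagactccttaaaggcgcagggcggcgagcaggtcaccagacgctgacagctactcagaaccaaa
Hspa1b (chr17:34959209-34959358, minus strand): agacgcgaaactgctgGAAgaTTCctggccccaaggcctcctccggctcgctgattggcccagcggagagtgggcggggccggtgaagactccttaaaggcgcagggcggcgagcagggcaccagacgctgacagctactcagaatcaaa
Hsph1 (chr5:149636286-149636435, minus strand): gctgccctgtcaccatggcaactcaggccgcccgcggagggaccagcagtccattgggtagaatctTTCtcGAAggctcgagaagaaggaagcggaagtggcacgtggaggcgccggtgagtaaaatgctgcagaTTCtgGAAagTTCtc
Hspe1 (chr1:55088028-55088177, plus strand): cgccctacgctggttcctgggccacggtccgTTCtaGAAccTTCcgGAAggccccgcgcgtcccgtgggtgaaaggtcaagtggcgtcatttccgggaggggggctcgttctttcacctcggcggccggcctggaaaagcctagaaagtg
Chordc1 (chr9:18292147-18292296, plus strand): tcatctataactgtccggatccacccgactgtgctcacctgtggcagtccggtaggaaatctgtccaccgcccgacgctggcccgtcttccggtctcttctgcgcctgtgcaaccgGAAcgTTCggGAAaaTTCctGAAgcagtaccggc
Hspb8 (chr5:116422835-116422984, minus strand): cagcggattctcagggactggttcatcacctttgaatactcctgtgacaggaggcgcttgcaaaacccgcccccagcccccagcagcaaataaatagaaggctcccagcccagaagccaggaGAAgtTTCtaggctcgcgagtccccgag
Dnajb4 (chr3:152193816-152193965, minus strand): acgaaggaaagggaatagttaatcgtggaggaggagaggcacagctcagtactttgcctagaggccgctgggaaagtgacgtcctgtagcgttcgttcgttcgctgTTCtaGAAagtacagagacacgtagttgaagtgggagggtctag

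Start windows of 300 bases, 250 before to 50 after the start, were given for 29 of the 37 members. Of these, 15 (51.7%) held a pair of units, GAANNTTC or TTCNNGAA, against 17% of 27025 genes with a window. A run of 3 such alternating units, each 2 bases from the next and so overlapping the shorter motifs, stood in 5 members (17.2%), against 0.662% of all genes. These 5 were Hsph1, Hspd1, Hspe1, Dnajb6 and Chordc1. The windows of Hspd1 and Hspe1, neighbours on chromosome 1, overlap and share the same run. Both strands were searched. The printed stretches of Hspa1a and Hspa1b, neighbours on chromosome 17, were identical at 148 of 150 bases, and each held 1 pair of units. In the printed stretches of Hspb8 and Dnajb4 there was also 1 pair each. Such matches describe letters and do not show a bound site.

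Immediately after noise, Hspa8 rose by 0.34 ± 0.06, or 1.26-fold (limma, adjusted p = 0.0234). It was the single member called of 34, against a background of 0.931% of all genes called in this comparison. No member was called lower. Many others leaned the same way without passing: 28 of 34 members (82.4%) had a difference above 0, against 44.5% of all genes. All 3 immediate arrays lay above all 3 controls for 12 members (35.3%), against 8.86% of all genes, and below them for 0 members, against 12.3%. At an unadjusted p under 0.05 there were 10 members, all higher, or 29.4% against 15.5% of all genes in either direction. The median difference was 0.08 over the members and -0.02 over all genes tested.

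**Figure D1:**
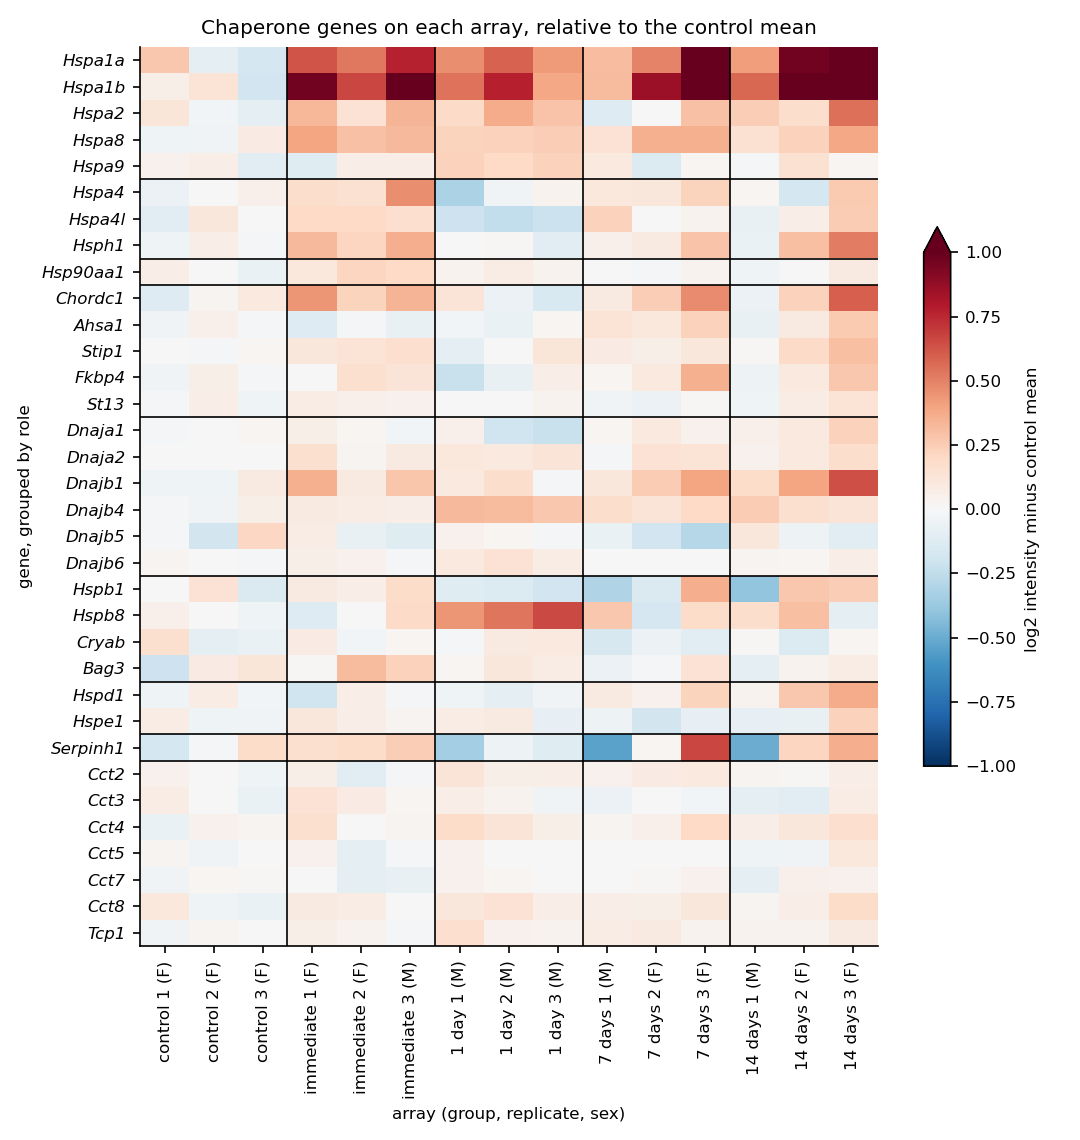
Log2 intensity of the 34 tested members (rows, grouped by role) on each of the 15 arrays (columns, with replicate number and sex), minus the mean of the 3 controls. Red is higher and blue lower, and the colour scale ends at 1, which some Hspa1b and Hspa1a values exceed. The Hspa1a, Hspa1b and Hspa8 rows are red on all 12 noise arrays.

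Among the Hsp70 genes, Hspa8 read 13.35, 13.25 and 13.28 on the immediate arrays, against 12.91, 12.92 and 13.04 in controls. It read 13.18, 13.19 and 13.20 at 1 day, 13.10, 13.31 and 13.31 at 7 days, and 13.11, 13.19 and 13.34 at 14 days. On this probe set, every one of the 12 noise arrays thus lay above the highest control. The differences from control at 1, 7 and 14 days were 0.23, 0.28 and 0.26 (adjusted p = 0.0616, 0.173 and 0.502) and did not pass. A test over all 5 groups called Hspa8 as well (adjusted p = 0.0267). The immediate call was lost when any 1 of 5 arrays was left out (controls 1 and 2 and all 3 immediate arrays), with an adjusted p of up to 0.104, while the difference stayed between 0.31 and 0.38. It also missed the threshold without the mean-variance trend (adjusted p = 0.0564) and in female arrays alone, where it was 0.34 (adjusted p = 0.113).

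The inducible pair Hspa1a and Hspa1b lay far above control in estimate, with wide errors. Hspa1b read 8.61, 8.31 and 8.87 immediately after noise, against 7.70, 7.78 and 7.45 in controls. At 1 day it read 8.19, 8.42 and 8.03, at 7 days 7.96, 8.50 and 9.24, and at 14 days 8.22, 9.00 and 9.62. Again all 12 noise arrays exceeded all 3 controls. The differences were 0.95 ± 0.31, 0.57 ± 0.31, 0.92 ± 0.31 and 1.30 ± 0.31 in order of time, or 1.94-, 1.48-, 1.90- and 2.47-fold, and none passed (adjusted p = 0.161, 0.363, 0.313 and 0.434). With sex as a term the differences were 1.13, 1.10, 1.10 and 1.48, so that the lower value at 1 day was not seen in that fit (adjusted p = 0.0956, 0.175, 0.169 and 0.191). The spread within groups was wide at the late times, with a range of 1.28 at 7 days and 1.40 at 14 days. Without 7-day replicate 3 the 7-day difference was 0.59. With only the immediate and control arrays in the fit, the immediate difference passed (adjusted p = 0.0205), as did the 1-day difference with only those groups (adjusted p = 0.0426). The immediate difference also passed with array weights (1.02, adjusted p = 0.0435).

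Hspa1a read 7.27, 7.17 and 7.41 immediately after noise, against 6.91, 6.55 and 6.47 in controls. Later values were 7.11, 7.23 and 7.07 at 1 day, 6.95, 7.14 and 7.71 at 7 days, and 7.06, 7.61 and 7.80 at 14 days. Here too no noise array fell within the control range. The differences of 0.64, 0.49, 0.62 and 0.85 (SE 0.19 each) did not pass (adjusted p = 0.135, 0.19, 0.277 and 0.417). With array weights the immediate difference was 0.73 and passed (adjusted p = 0.0241), in a fit that called 5.55% of all genes. The 1-day difference was 0.80 with sex as a term, and without 7-day replicate 3 the 7-day difference was 0.40. The 2 genes are near-identical copies, so that their probe sets may read transcripts of both.

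Of the other Hsp70 genes, Hspa2, known for its role in spermatogenesis, differed from control by 0.27 immediately and 0.28 at 1 day. Hspa9, the mitochondrial Hsp70, differed by 0.01 and 0.22. Neither passed. All 5 Hsp70 genes lay above control immediately and at 1 day, with medians of 0.34 and 0.28, and 1 of them, Hspa8, was called, in the immediate group. Over all 12 noise arrays against the 3 controls, 4 of 34 members did not overlap on the probe sets used and were higher, namely Hspa1a, Hspa1b, Hspa8 and Dnajb4. That is 11.8% of members, against 0.403% of all genes, and 0 members were lower, against 0.359%.

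**Figure D2:**
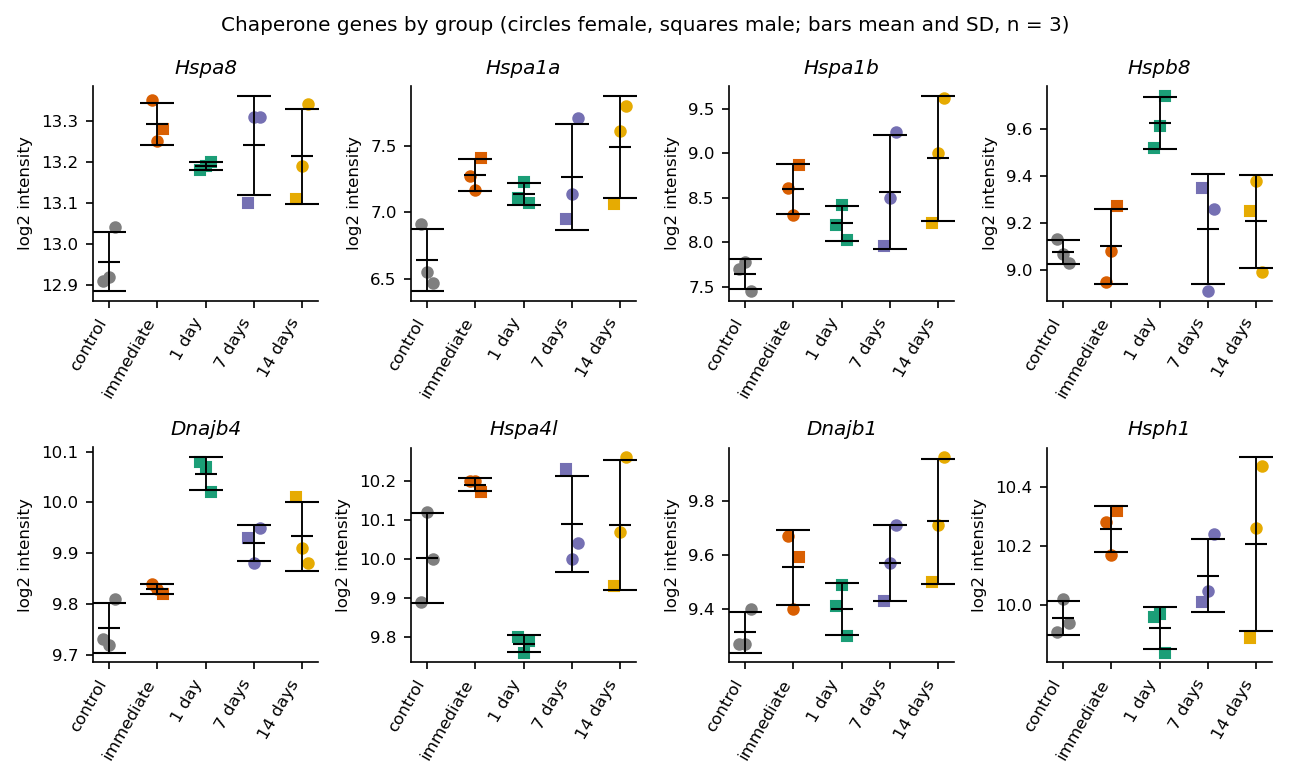
Log2 intensity of 8 members by group, each point an array (circles female, squares male), with bars at the mean and SD (n = 3). Hspa8, Hspa1a, Hspa1b and Dnajb4 lie above the controls on all noise arrays, Hspb8 and Dnajb4 are highest at 1 day and Hspa4l lowest there, and Hsph1 was added after its values were seen.

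One day after noise, the called members were the small heat shock protein gene Hspb8 and the J-domain gene Dnajb4, both higher. These were 2 of 34 members, against a background of 3.18% of all genes called. Hspb8 partners Bag3 in clearing misfolded proteins by autophagy, and Dnajb4 is a co-chaperone of Hsp70. A difference above 0 was found for 24 of 34 members (70.6%, against 47.1% of all genes). At an unadjusted p under 0.05 there were 9 members, 8 higher and 1 lower, or 26.5% against 17.9% of all genes. The 3 arrays lay above the controls for 12 members (35.3%, against 10.1% of all genes) and below them for 1 (against 12.5%). The median difference was 0.04, against -0.01 over all genes, and 0.12 with sex as a term.

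Hspb8 read 9.52, 9.61 and 9.74 at 1 day, against 9.13, 9.07 and 9.03 in controls. Its other noise arrays read 8.95, 9.08 and 9.27 immediately, 9.35, 8.91 and 9.26 at 7 days, and 9.25, 9.38 and 8.99 at 14 days. The 1-day arrays were above all 12 others, and the remaining noise groups overlapped the controls. Hspb8 rose by 0.55 ± 0.12, or 1.46-fold, at 1 day (adjusted p = 0.0217). Leaving out control 2, control 3, or 1-day replicate 2 or 3 ended this call, with an adjusted p of up to 0.0947 and differences of 0.49 to 0.60.

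Dnajb4 read 10.08, 10.07 and 10.02 at 1 day, against 9.73, 9.72 and 9.81 in controls. It read 9.84, 9.83 and 9.82 immediately, 9.93, 9.88 and 9.95 at 7 days, and 10.01, 9.91 and 9.88 at 14 days. No noise array overlapped the controls, and the 1-day arrays were the 3 highest of 15. Dnajb4 rose by 0.30 ± 0.05, or 1.23-fold, at 1 day (adjusted p = 0.00447), and this call held whichever array was left out (adjusted p at most 0.0324). The 7-day and 14-day differences were 0.17 and 0.18 (adjusted p = 0.272 and 0.502).

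Every 1-day mouse was male and every control female. With sex as a term, estimated from the groups that held both, Hspb8 differed from control by 0.35 (adjusted p = 0.252) and Dnajb4 by 0.27 (adjusted p = 0.0759) at 1 day, so that neither passed, while Hspa8 then passed with 0.36 (adjusted p = 0.0412). Immediate Hspa8 also passed with the term, with 0.38 (adjusted p = 0.00956). The 3 males of the other noise groups read 9.27, 9.35 and 9.25 for Hspb8 and 9.82, 9.93 and 10.01 for Dnajb4. The lowest 1-day arrays read 9.52 for Hspb8 and 10.02 for Dnajb4. The sex term itself called 0 of 34 members and 6 of all genes, while 5 members had an unadjusted p under 0.05. A lower estimate in males was found for 29 of 34 members and a higher one for 5. Hspb8 (0.195) and Dnajb4 (0.04) were among those higher in males.

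Markers of other cell types also differed at 1 day. Of 8 macrophage markers, 6 were called higher, with a median of 1.09 and a summed intensity of 3071 to 3314, against 1751 to 1867 in controls, and none was at 0. Of 6 bone markers, 2 were called lower, with sums of 2239 to 3110, against 4018 to 7527 in controls. The sum over 10 neuron markers was 48941 to 51750, against 56142 to 57158 in controls, with 1 marker called higher and 1 lower. The sum over 6 markers of supporting cells and fibrocytes was 29588 to 32908, against 35562 to 37816 in controls. Of these 6, however, 4 were above control and 2 below, with a median of 0.15 and 1 called lower. Such a sum follows its brightest markers, here Coch and Otos, with means of 14.2 and 13.78. Of 7 peripheral myelin and Schwann cell markers, 1 was called lower at 1 day, with a median of -0.01. At 7 and 14 days 5 of these 7 were above control and 2 below, with medians of 0.24 and 0.25 and none called. At times other than 1 day no neuron, macrophage, oligodendrocyte or bone marker was called. The 6 bone markers were all below control at 7 and 14 days, with sums of 2730 to 3981 and 2693 to 3487, and the 6 oligodendrocyte markers were all above control immediately, with a median of 0.24 and sums of 2421 to 3612, against 1578 to 3272 in controls. The part of these differences in the chaperone results was not tested.

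In the Hsp110 and Hspa4 family, 1 member was called between 1 day and the immediate group. Hspa4l, an Hsp110 relative that acts as a nucleotide exchange factor, fell by 0.41 ± 0.08 at 1 day relative to the immediate group (0.75-fold, adjusted p = 0.0088). It read 9.80, 9.76 and 9.79 at 1 day, against 10.20, 10.20 and 10.17 immediately after noise. The controls read 9.89, 10.12 and 10.00, between the 2 groups and overlapping neither. Against control, on the probe set used, the immediate difference was 0.19 (adjusted p = 0.278) and the 1-day difference -0.22 (adjusted p = 0.158). At 7 days the arrays read 10.23, 10.00 and 10.04 and at 14 days 9.93, 10.07 and 10.26, overlapping the controls. The call held whichever array was left out (-0.42 to -0.40, adjusted p at most 0.0381) and with sex as a term (-0.39, adjusted p = 0.0333).

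On the probe sets used, the 2 relatives Hspa4 and Hsph1 had the same sign and did not pass, while another bright Hspa4 set was at 0.17. Hspa4 was at -0.37 (adjusted p = 0.053) and Hsph1 at -0.33 (adjusted p = 0.0713) at 1 day relative to the immediate group. Hspa4 passed with array weights (adjusted p = 0.0319), the lowest 50% of genes left out (0.0458), the replicate block (0.0151) and quantile normalization (0.0496). It also passed without 14-day replicate 2 (0.0381) or 3 (0.036). Hsph1 passed with array weights (adjusted p = 0.0396) as well as with only the groups compared. It also passed without 14-day replicate 1 (0.0175) or 3 (0.0356). Hsph1 read 9.96, 9.97 and 9.84 at 1 day, against 10.28, 10.17 and 10.32 immediately, and the groups did not overlap. Against control, on the probe sets used, all 3 family members were above 0 immediately (0.19 to 0.30) and below 0 at 1 day (-0.22 to -0.03), with none called. Hsph1 was above 0 at 1 day with sex as a term, at 0.14 (adjusted p = 0.681), and with array weights the 1-day difference of Hspa4l passed (-0.25, adjusted p = 0.0484).

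In all, 3 of 34 members were called between 1 day and the immediate group, against a background of 8.39% of all genes. The other 2 were Hspb8, which rose by 0.52 ± 0.12 (adjusted p = 0.0158), and Dnajb4, which rose by 0.23 ± 0.05 (adjusted p = 0.0121). With sex as a term they were at 0.39 (adjusted p = 0.0774) and 0.20 (adjusted p = 0.0545). The 1-day arrays lay below the immediate arrays for 9 members (26.5%, against 14% of all genes) and above them for 4 (11.8%, against 15.4%). A difference above 0 was found for 15 members (44.1%, against 51.6%), and an unadjusted p under 0.05 for 9 (26.5%, against 24.4%). The median difference was -0.05 over the members and 0.01 over all genes, and with sex as a term the members' median was -0.0039. The comparisons with control share the control arrays, and those of the immediate and 1-day groups share arrays with this one.

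At 7 and 14 days after noise, 0 of 34 members were called by limma, against backgrounds of 0.022% and 0% of all genes. At an unadjusted p under 0.05 there were 6 members at 7 days (17.6%, against 11.2% of all genes) and 9 at 14 days (26.5%, against 7.85%), all higher. The 3 arrays lay above the controls for 9 members at 7 days (26.5%, against 8.19%) and for 10 at 14 days (29.4%, against 8.77%). They lay below the controls for 1 member at 7 days, Hspe1 (2.94%, against 4.57%), and for 0 at 14 days (against 5.45%). With array weights, the replicate block, quantile normalization or sex as a term, the counts called at both times were also 0. At 14 days 31 of 34 members (91.2%) had a difference above 0, against 56.6% of all genes, and at 7 days 25 (73.5%), against 53%. The members' median was 0.08 at 7 days and 0.09 at 14 days, against 0.01 and 0.02 over all genes.

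**Figure D3:**
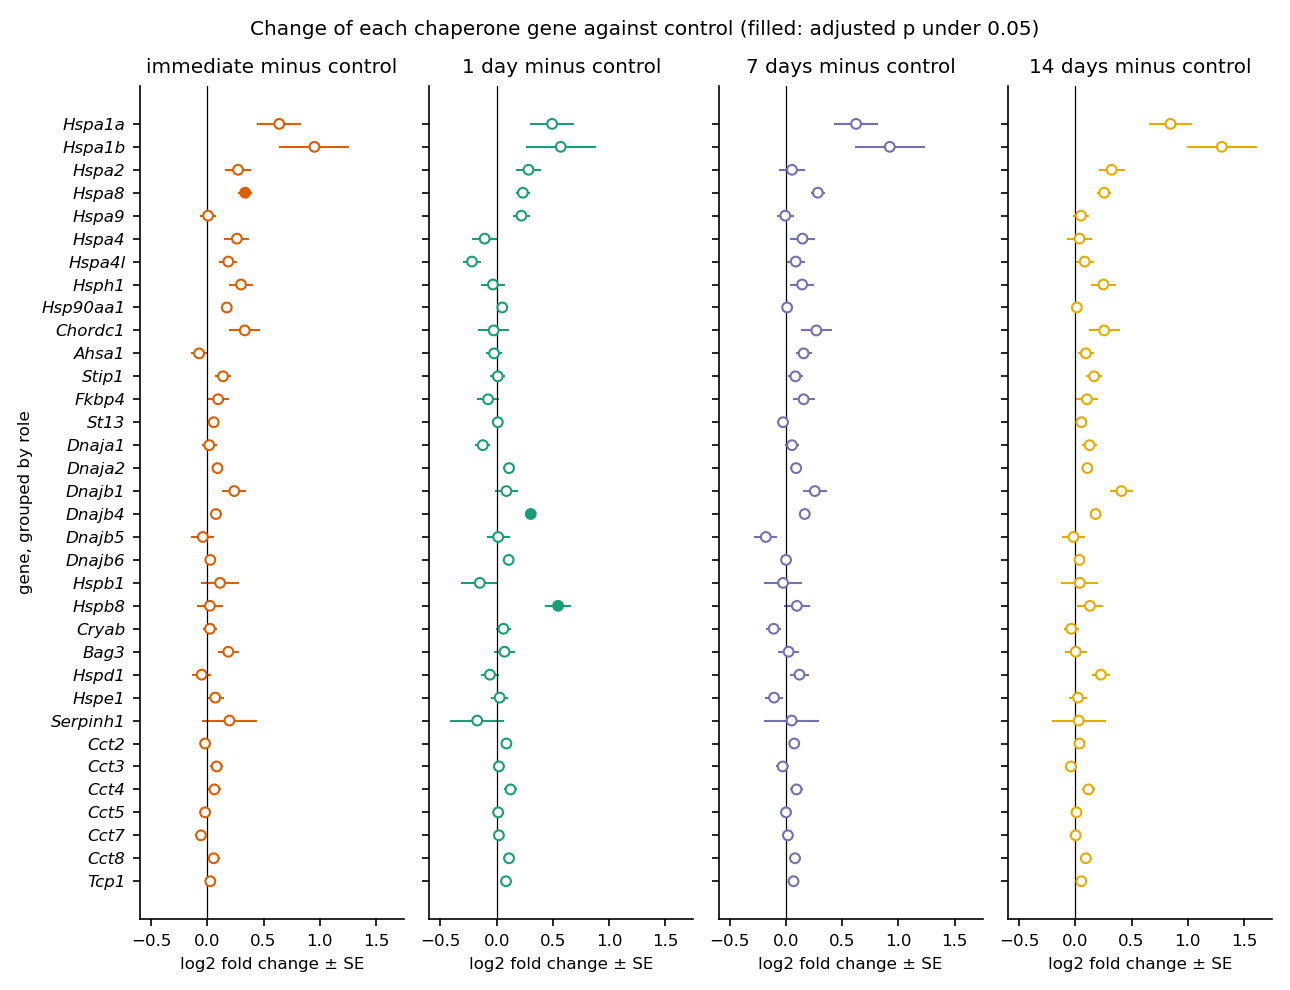
Log2 fold change against control with its standard error for the 34 tested members at each of the 4 times (rows grouped by role, n = 3 arrays a group). Filled points passed an adjusted p of 0.05, which holds for Hspa8 immediately and Hspb8 and Dnajb4 at 1 day, while Hspa1a and Hspa1b stand farthest right at 14 days with wide errors.

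A single array weighed on the 14-day values. Replicate 3 of that group held the highest of the 15 values for 16 of 34 members (47.1%), against 7.07% of all genes, with ties counted for each array. Without it, the members' median at 14 days was 0.03 in place of 0.09, and without replicate 1 it was 0.14. The Hspa1b difference was 0.97 without replicate 3 and 1.67 without replicate 1. The median range among the 3 arrays of the 14-day group was 0.23 over the members and 0.17 over all genes, and for 8 members it exceeded the 90th percentile of all genes, 0.42.

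The male of the 14-day group was the lowest of its 3 arrays for 24 of 34 members, against 33.9% of all genes, and the male of the 7-day group for 19 of 34, against 26.8%. In females alone, a comparison added after the data were seen, Hspa1b differed from control by 1.23 at 7 days (adjusted p = 0.11) and 1.67 at 14 days (adjusted p = 0.191). The part of sex in these values was not tested apart from the single male array of each group.

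**Figure D4:**
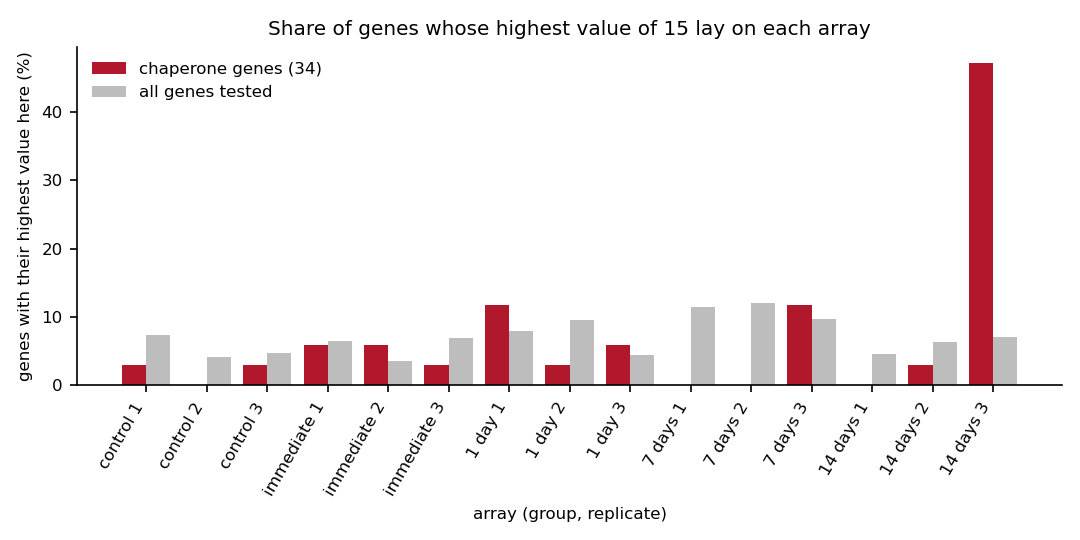
Share of genes, in percent, whose highest value of 15 lay on each array, for the 34 members (left bars) and all 13644 genes (right bars). Replicate 3 of the 14-day group holds 47.1% of the members and 7.07% of all genes.

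Dnajb1, the J-domain partner of inducible Hsp70, read 9.50, 9.71 and 9.96 at 14 days, against 9.27, 9.27 and 9.40 in controls, with no overlap. It read 9.67, 9.40 and 9.59 immediately, 9.41, 9.49 and 9.30 at 1 day, and 9.43, 9.57 and 9.71 at 7 days. The differences of 0.24, 0.09, 0.26 and 0.41 in order of time did not pass (adjusted p = 0.288, 0.734, 0.39 and 0.502). Among the 6 J-domain genes, Dnajb4 at 1 day was the single call against control on the probe sets used. The other differences on these sets ran from -0.18 to 0.41. Another bright Dnaja1 set was at 0.35 immediately, where the set used was at 0.02.

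Hsp90aa1, the inducible cytosolic Hsp90, read 13.11, 13.22 and 13.20 immediately after noise, against 13.07, 13.00 and 12.94 in controls. On this probe set the groups did not overlap, and the difference of 0.17 ± 0.05 had an adjusted p of 0.0856 (0.015 with array weights). At 1 day it read 13.04, 13.08 and 13.04, at 7 days 13.01, 12.99 and 13.04, and at 14 days 12.96, 13.00 and 13.09, all overlapping the controls. The later differences were 0.05, 0.01 and 0.01, and the sign of those at 7 and 14 days turned when control replicate 3 or 1 of the late arrays was left out.

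The co-chaperones were not called at any time on the probe sets used. Chordc1, a partner of Hsp90 whose start holds the longest run of units printed above, read 9.96, 9.74 and 9.86 immediately, against 9.39, 9.55 and 9.62 in controls, with no overlap, and was named after its values were seen. Its difference of 0.33 had an adjusted p of 0.255. On the probe sets used, Ahsa1, Stip1, Fkbp4 and St13 differed from control by -0.08 to 0.17 over the 4 times. Ahsa1 speeds the Hsp90 ATPase, and Stip1 links Hsp70 to Hsp90. Another St13 set was at 0.26, 0.17, 0.23 and 0.32 in order of time. Another Fkbp4 set was at 0.20 at 1 day, where the set used was at -0.08.

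No member of the remaining roles was called, nor were the other genes grouped with Hspb8. Of these, Hspb1 and Cryab differed from control by -0.15 to 0.11 on the probe sets used, and Bag3 by at most 0.19. Another Hspb1 set was at 0.20 immediately. Cryab is a lens crystallin gene whose product is also a chaperone of muscle and glia. Hspd1 and Hspe1, the mitochondrial chaperonin and its lid, differed by -0.11 to 0.23. The collagen chaperone gene Serpinh1 differed by -0.17 to 0.20 on the set used, and another set was at 0.32 immediately. On the probe sets used, the 7 TRiC subunits, which form the ring that folds actin and tubulin, differed by -0.06 to 0.12. At 1 day all 7 TRiC subunits were above 0, between 0.01 and 0.12, where 47.1% of all genes were above 0. Another bright Cct2 set was at 0.37 immediately, 0.29 at 1 day and -0.16 at 7 days. A bright Cct4 set was at 0.24, 0.23 and -0.10. Of the 5 genes with a run of 3 heat shock units, 0 were called in any comparison, where 0% to 8.39% of all genes were. With only the immediate and 1-day arrays in the fit, 2 of the 5 were called lower at 1 day, Hsph1 at -0.33 (adjusted p = 0.0113) and Chordc1 at -0.36 (adjusted p = 0.0263), against 10.1% of all genes. Hsf2 read 4.10 to 5.09 over the 15 arrays, near or below the filter level of 4.70.

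Over all 5 groups at once, 4 of 34 members were called, against a background of 6.75% of all genes. They were Dnajb4 (adjusted p = 0.0108), Hspa8 (0.0267), Hspa4l (0.0373) and Hspb8 (0.038).

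Other probe sets of the same genes gave a check on these values, in a fit of every 1-gene probe set. Of 4 Hspa8 probe sets, 3 were called higher immediately after noise, with 0.76, 0.34 and 0.42, and the dim one was at 0.13. The set with the largest difference read 12.36 on all 3 immediate arrays, against 11.88, 11.30 and 11.62 in controls. At later times that set overlapped the controls, with lowest values of 11.83 at 1 day, 11.74 at 7 days and 11.50 at 14 days. Another bright Hspa8 set was called higher at 1 day as well, with 0.24 (adjusted p = 0.0283). The 3 Hspa1b sets were at 1.07, 0.93 and 0.95. Of 3 Hspb8 sets, 2 were called higher at 1 day (0.55 and 0.61) and the dim one was at 0.36. All 5 Hspa4l sets were called lower at 1 day relative to the immediate group, from -0.54 to -0.27. Against control, all 5 were below 0 at 1 day, from -0.27 to -0.17, and 1 was called, at -0.27 (adjusted p = 0.0319). Immediately after noise the 5 sets ran from -0.0033 to 0.30 against control.

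Probe sets disagreed for other members. Of 3 Dnajb4 sets, 2 were called higher at 1 day (0.30 and 0.38), while a dim one was at -0.48, so that the mean over the 3 was 0.07 (adjusted p = 0.72). For 1 day relative to the immediate group that mean was 0.0056 (adjusted p = 0.975). For Hspa4 at 1 day, the set used was at -0.11 and another at 0.20. Relative to the immediate group these were at -0.37 and 0.17, and the remaining Hspa4 sets at -0.43 and -0.14. For Hsp90aa1 immediately, the set used was at 0.17. Another bright set was at 0.02 with overlapping groups, and a further one at 0.17, where control 1 and immediate 2 both read 12.91. Sets of Dnaja2 and Dnajb6 that were not the brightest were called higher at 1 day, with 0.22 (adjusted p = 0.0449) and 0.36 (adjusted p = 0.0285), and 1 of Fkbp4 was called higher at 1 day relative to the immediate group, with 0.28 (adjusted p = 0.0322).

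**Figure D5:**
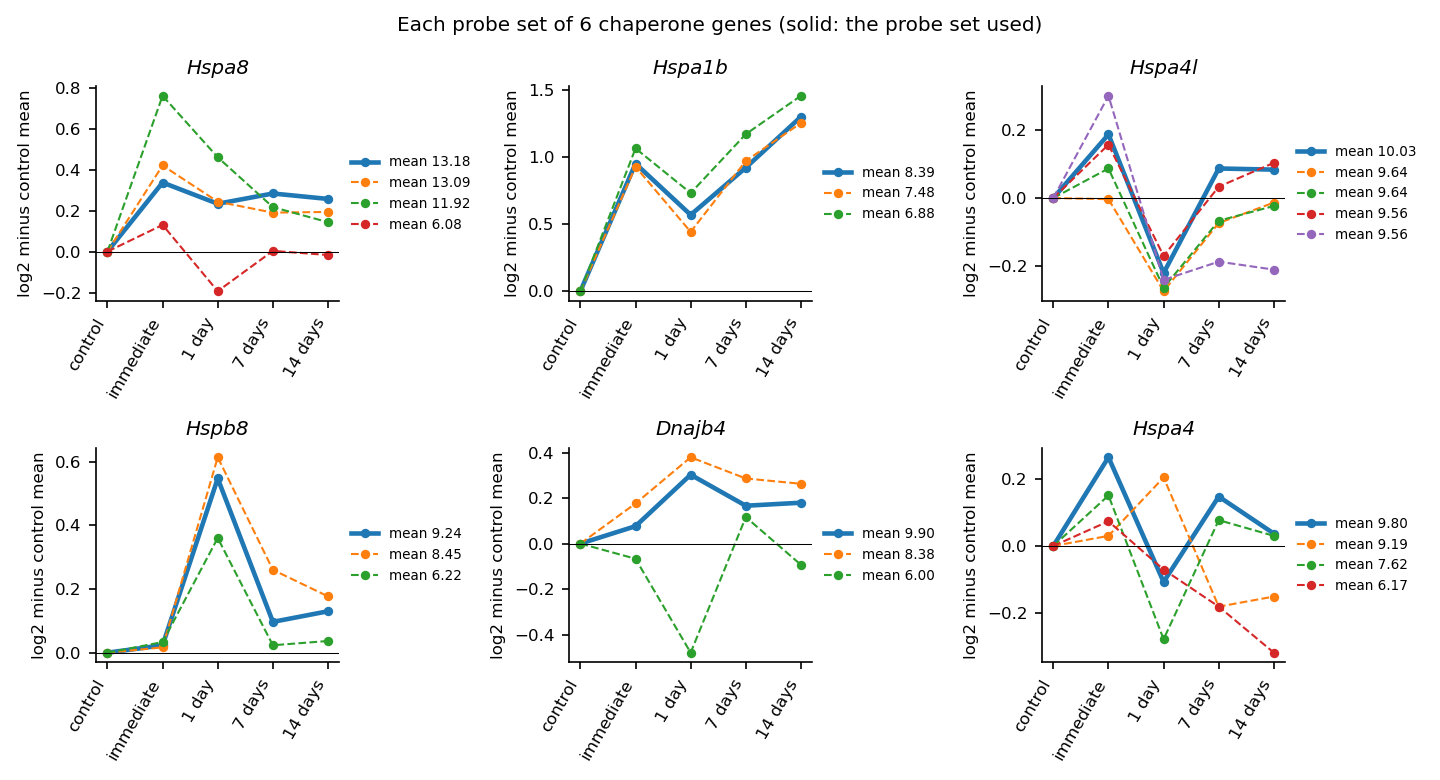
Group mean minus control mean (log2) for every 1-gene probe set of 6 members over the 5 groups, with the set used as a solid line and each set's mean over 15 arrays in the legend. The sets of Hspa1b run together, and all 5 Hspa4l sets are lower at 1 day than immediately. The dim Dnajb4 and Hspa8 sets run apart from the bright ones. The bright Hspa8 sets also part, with the set used at 0.34 immediately and 0.26 at 14 days. The others go from 0.76 to 0.14 and from 0.42 to 0.19.

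Further genes of the pathway were taken from a list of 60, of which 51 were tested. Immediately and at 7 and 14 days 0 were called, against 0.931%, 0.022% and 0% of all genes. At 1 day 2 were called (3.92%, against 3.18% of all genes), both higher. Sqstm1, the autophagy receptor p62, rose by 0.28 (adjusted p = 0.00785), with 11.38, 11.36 and 11.44 at 1 day, against 11.17, 11.14 and 11.03 in controls. Cct6a, a further TRiC subunit, rose by 0.26 (adjusted p = 0.024), with 11.55, 11.66 and 11.55, against 11.44, 11.28 and 11.27. Relative to the immediate group, Sqstm1 rose by 0.25 (adjusted p = 0.00843) and the J-domain gene Dnajb14 fell by 0.35 (adjusted p = 0.0143) at 1 day. The list's median was 0.03 immediately and 0.01 at 1 day.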

How the data were processed

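The deposited log2 intensities of 15 Affymetrix arrays, 3 per group, were used as the authors gave them. Per the submitters' processing notes the tools were Affymetrix Expression Console, RMA and MAS5, with no versions. Whether RMA or MAS5 made the deposited log2 values is not stated. Medians differed little between arrays, so nothing was renormalized. Array signals compress near background, which can understate changes of dim genes.

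Of 45101 probe sets, 34945 paired with 1 gene symbol in the platform annotation, and each gene was represented by the one with the highest mean. Genes in the lowest 25%, at or below 4.70, were left out, and control probe sets too. The fit used limma 3.58.1 (lmFit, then trended eBayes; R 4.3.3) with group as the only term, all arrays and 10 residual degrees of freedom. Tests were two-sided, adjusted by Benjamini-Hochberg over 13644 genes within each of 5 contrasts, and called at an adjusted p under 0.05. Contrasts set each time against control and 1 day against the immediate group, and a moderated F test covered the 5 groups. The fit was tested on simulated data.

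Members and lists were chosen with earlier results of these data known. Values by array are given for members called in any contrast, for the 3 with the smallest p where fewer than 3 were called, and for Hspa1a, Hspa1b, Hsp90aa1 and Dnajb1. Others are given by range or named after their values were seen. Alternatives were sex as a term, no filter or a 50% filter, the mean over probe sets, no trend, array weights, a replicate-number block, a fit of just the compared groups, quantile normalization and leaving out each array. A fit of female arrays was added later, with the data in view. The number of arrays limits the precision.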

Additional observations from a re-analysis of the deposited data

Results flagged for a closer look

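In 3 of 34 members (8.82%, against 8.39% of all genes) the effect of noise differed between 1 day and the immediate group when that difference was itself tested with limma. Hspb8 was at 0.5233 (adjusted p = 0.0158), with 9.52 to 9.74 at 1 day, against 8.95 to 9.27 immediately. Dnajb4 was at 0.2267 (adjusted p = 0.0121), with 10.02 to 10.08 at 1 day, against 9.82 to 9.84 immediately. With the mean over its 3 probe sets Dnajb4 was at 0.0056 (adjusted p = 0.975). Hspa4l was at -0.4067 (adjusted p = 0.0088), with 9.76 to 9.80 at 1 day, against 10.17 to 10.20 immediately. All 3 arrays of one group lay on the same side of all 3 arrays of the other for each gene. The 1-day mice were 3 males and the immediate group held 1 male, and macrophage markers were also higher at 1 day. With sex as a term Hspa4l alone of the 3 still passed.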

How the results depend on the processing

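Counts of called members moved with several settings. With sex as a term, 1 member was called at 1 day, 1 between 1 day and immediate, and 1 over the 5 groups (0.55%, 4.78% and 3.19% of all genes). The mean over probe sets gave 1 at 1 day and 2 over the 5 groups (2.57% and 6.73%), and no trend gave 0 immediately and 1 over the 5 groups (0.85% and 5.04%). Array weights gave 4 immediately, 5 at 1 day, 5 between these times and 7 over the 5 groups (11.8%, 14.7%, 14.7% and 20.6% of members), and also called more of all genes (5.55%, 8.11%, 13.9% and 13.2%). Only the groups compared gave 2 immediately, 4 at 1 day and 7 between them (0.989%, 2.98% and 10.1% of all genes), quantile normalization gave 5 between them (9.52%), and female arrays alone gave 0 immediately (0.0586%). Leaving out each array gave 0 to 1 immediately, 1 to 3 at 1 day, 0 to 1 at 7 days, 0 at 14 days, 2 to 5 between 1 day and immediate, and 0 to 8 over the 5 groups. The single member called at 7 days was Hspa8, in 1 of these fits (adjusted p = 0.0332). Without control replicate 3, Hsp90aa1 turned to -0.0217 at 7 days and -0.0183 at 14 days, without 7-day replicate 3 to -0.0033 at 7 days, and without 14-day replicate 3 to -0.0233 at 14 days. Over all arrays left out, its differences reached 0.0433 at 7 days and 0.0467 at 14 days. Hspb8 between 1 day and immediate was lost without immediate replicate 1 or 1-day replicate 2 or 3 (adjusted p up to 0.0647), and Dnajb4 without immediate replicate 3 (0.0501). The replicate block gave 2 over the 5 groups (8.34% of all genes). The block also called 1.33%, 4.16% and 10.1% of all genes immediately, at 1 day and between these times, against 0.931%, 3.18% and 8.39% without it. Of 30 same-number pairs 11 had r above 0.1 (-0.331 to 0.303), and 7 of 15 arrays matched their own number best. With 3 arrays a group, these values cannot decide whether replicate numbers pair samples. The causes were not tested. Without a filter, or with the lowest 50% left out, every count stayed within 1.5 times of the one reported. Precision rests on 3 arrays a group, and signals near background give no firm size.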

Other observations

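Serpinh1, which folds collagen in the endoplasmic reticulum, and Hspb1, which guards the cytoskeleton, spread widely within the late groups. Serpinh1 read 9.01 in the male and 9.56 and 10.21 in the females at 7 days, and 9.05 in the male and 9.76 and 9.91 in the females at 14 days. The controls, all female, read 9.37, 9.53 and 9.73. Hspb1 read 10.67 in the male and 10.83 and 11.34 in the females at 7 days, and 10.58 in the male and 11.24 and 11.22 in the females at 14 days. In the fit with sex as a term, males minus females was -0.53 for Serpinh1 (unadjusted p = 0.00593) and -0.32 for Hspb1 (unadjusted p = 0.0195), and neither passed adjustment over all genes. Both genes were chosen after their values were seen.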
